A study of Mus musculus with 4 samples.

Results

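Ccl11 and Ccl24 encode eotaxins, chemokines named for drawing eosinophils, and Ccr3 encodes the receptor on which both act. The genes were taken by symbol from the gene tables of a single-cell RNA study of mouse skin, where 3 of the 32285 listed genes were members and each symbol matched once. The study has 4 libraries, 1 for each group, of neck and ear skin from female C57BL/6J mice aged 6 to 8 weeks, and each library pooled 3 mice. The MC903 day 9 library came from skin given MC903 (calcipotriol, a vitamin D analogue), 1 nmol in 100 µL daily for 9 days. The oxazolone day 16 and oxazolone day 10 libraries came from mice sensitised with 3% oxazolone, a contact sensitiser, and challenged with 1.0% oxazolone every other day from day 7. The untreated library came from mice that received neither agent, and no solvent-treated group is among the libraries analysed here. All skin was digested with collagenase and cleared of dead cells. Because a group is 1 pool of mice, no test between groups was possible and the mice of a pool could not be told apart.

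CCR3 is carried mainly by eosinophils and also by basophils and some mast and T cells. In skin the best known source of CCL11 is the dermal fibroblast, in which IL-4 and IL-13 induce it through STAT6, while CCL24 is a product of macrophages exposed to the same cytokines. CCL11 and CCL24 therefore share a receptor but are made by different cells, and both are studied in allergic and atopic inflammation.

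The files place Ccl11 (ENSMUSG00000020676) on the plus strand of chr11:82057823-82062955 in mouse build GRCm38. Its nearest annotated gene was Ccl7, 10298 bases away, in a cluster of monocyte-attracting chemokine genes. Ccl24 (ENSMUSG00000004814) lies on the minus strand of chr5:135569937-135573049, and its nearest gene was Ccl26, 6368 bases away, whose human counterpart is also an eotaxin. Ccr3 (ENSMUSG00000035448) lies on the plus strand of chr9:124021972-124031689. No annotated gene overlapped any of them. Ccl26 was close to silent, with 1 UMI (unique molecular identifier, a tag that marks 1 captured RNA molecule) with MC903, 4 at oxazolone day 16, 1 at oxazolone day 10 and 0 in untreated skin.

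The libraries held 4185 (MC903), 8199 (oxazolone day 16), 8708 (oxazolone day 10) and 7755 (untreated) barcodes, with totals of 73054242 to 119717836 UMIs. After filtering, 26111 cells remained, with a median of 8818 to 14393 UMIs per cell across libraries. Pairs of libraries shared 5 to 16 barcodes. Cells were grouped into 53 clusters and, by fixed marker genes, into 21 classes whose names end in "-like". By their file headers, MC903 and oxazolone day 16 were counted with Cell Ranger 8.0.0, but oxazolone day 10 and untreated skin with 7.2.0, so between these pairs the software version and the group cannot be told apart. Values within each pair stand beside the results below.

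Levels are given as CPM, in which the UMIs of a gene are divided by all UMIs of the cells named and brought to a fixed total. Intervals of levels are exact Poisson, those of shares exact Clopper-Pearson and those of ratios exact conditional binomial, all at 95%. They cover counting error only, not the spread between mice. A gene counted as measured with at least 30 UMIs in a pair of libraries, and was called higher or lower by size alone, at a ratio of at least 2-fold. The median log2 ratio of all measured genes lay within 0.1 of 0 for MC903 and for oxazolone day 10 over untreated skin in the 3 classes compared below. For oxazolone day 16 over untreated skin it was -0.18 in fibroblast-like cells, -0.28 in mural-like cells and -0.35 in the macrophage-like or monocyte-like class. For oxazolone day 16 over day 10 it was -0.11 in fibroblast-like cells, -0.20 in mural-like cells and -0.41 in the macrophage-like or monocyte-like class.

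The 3 genes had different sources. Fibroblast-like cells held 90.2% (MC903), 93.2% (oxazolone day 16), 77.4% (oxazolone day 10) and 94.6% (untreated) of each library's Ccl11 UMIs. Mural-like cells, the pericytes and smooth muscle cells of vessel walls, held the next largest share, at 8.57% with MC903, 4.10% at oxazolone day 16, 20.6% at oxazolone day 10 and 3.50% in untreated skin. Of the Ccl24 UMIs, macrophage-like or monocyte-like cells had 98.4% with MC903, 98.2% at oxazolone day 16, 97.1% at oxazolone day 10 and 82.7% in untreated skin. Ccr3 had no such single source, and its main holders were neutrophil-like cells in some libraries and T cells in others.

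**Figure D1:**
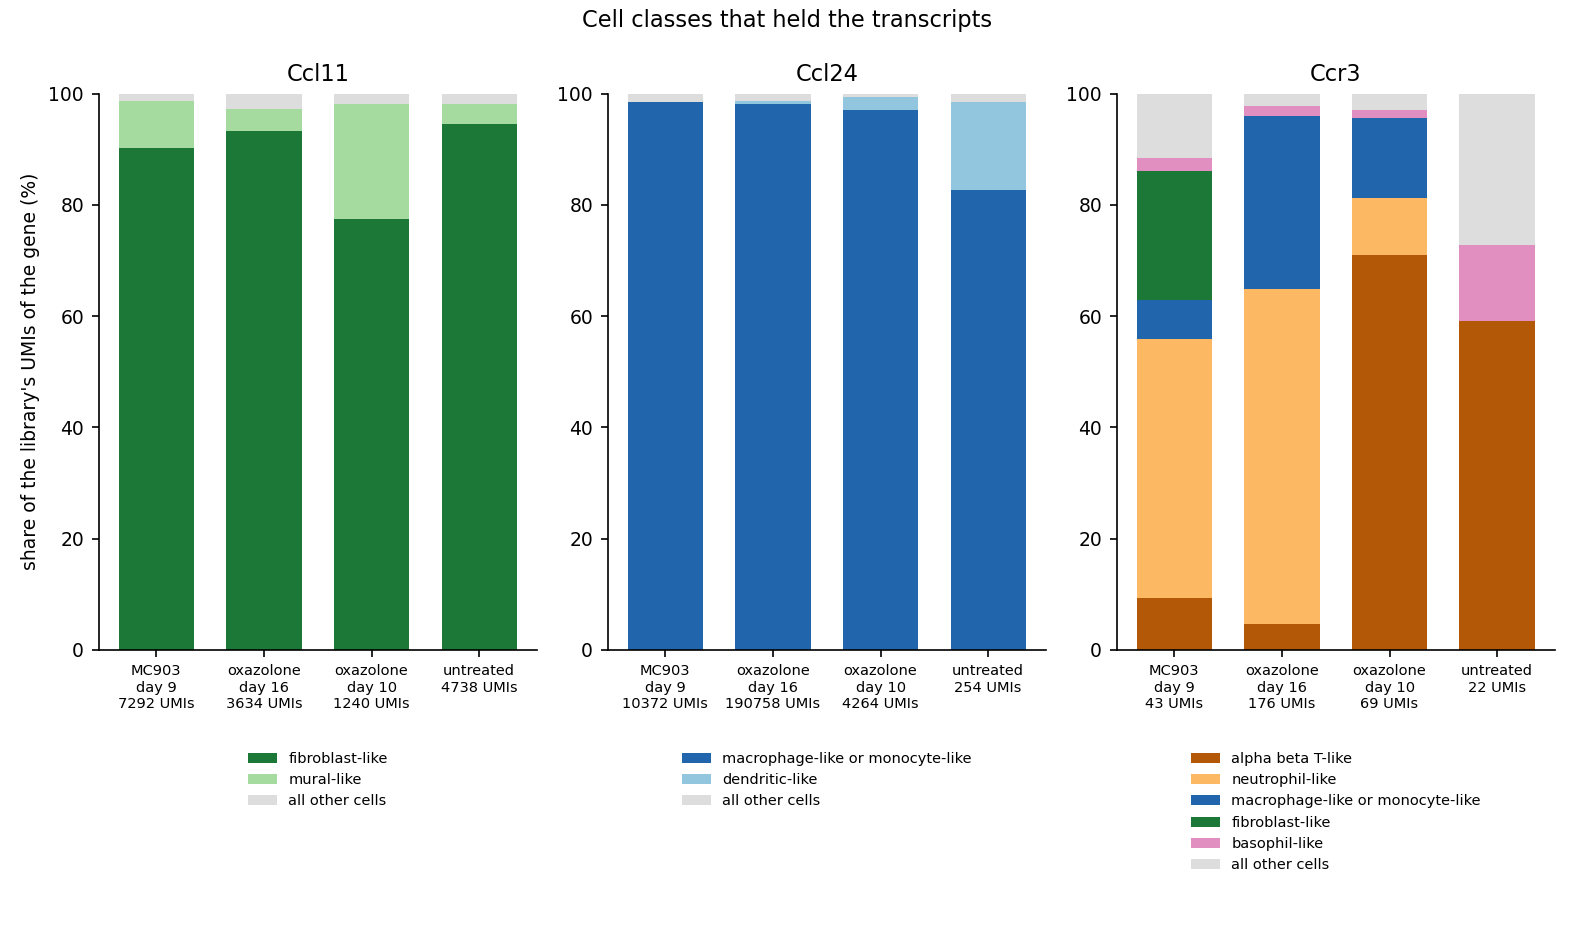
Share of each library's UMIs of Ccl11, Ccl24 and Ccr3 (percent, stacked bars) by the class of cell that held them, with the number of UMIs under each bar. Fibroblast-like cells held at least 77.4% of Ccl11 and macrophage-like or monocyte-like cells at least 82.7% of Ccl24 in all 4 libraries, whereas the main holder of Ccr3 differed between libraries.

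Over all kept cells, Ccl11 was at 106 CPM (7292 UMIs) with MC903, 37.0 CPM (3634 UMIs) at oxazolone day 16, 11.7 CPM (1240 UMIs) at oxazolone day 10 and 57.4 CPM (4738 UMIs) in untreated skin. Such whole-library levels depend on the number of fibroblast-like cells, which was 1079 with MC903, 352 at oxazolone day 16, 396 at oxazolone day 10 and 1731 in untreated skin. The level within fibroblast-like cells is therefore the measure used below. All 6 fibroblast markers, among them Col1a1 and Pdgfra, were found in 84.5% to 100% of these cells in every library.

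Within fibroblast-like cells Ccl11 was found in every group and was lowest at oxazolone day 10. Its level was 228 CPM (interval 223 to 234) with MC903, 268 CPM (259 to 277) at oxazolone day 16, 82.8 CPM (77.6 to 88.2) at oxazolone day 10 and 194 CPM (188 to 199) in untreated skin. A Ccl11 UMI was found in 54.4% of fibroblast-like cells with MC903, 65.1% at oxazolone day 16, 32.1% at oxazolone day 10 and 51.1% in untreated skin. The median cell was at 38.0 CPM with MC903, 92.7 CPM at oxazolone day 16, 0 at oxazolone day 10 and 48.1 CPM in untreated skin. Oxazolone day 10 was thus lowest by each of these measures. The untreated cells were the shallowest, with a median of 12738 UMIs, against 24895 with MC903, 35918.5 at oxazolone day 16 and 28227.5 at oxazolone day 10. With every cell thinned to 1000 UMIs the share with Ccl11 was 19.4% with MC903, 18.2% at oxazolone day 16, 5.87% at oxazolone day 10 and 14.0% in untreated skin.

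Relative to untreated skin, the log2 ratio of Ccl11 in fibroblast-like cells was 0.24 (0.18 to 0.29) with MC903 and 0.47 (0.40 to 0.53) at oxazolone day 16. Both were short of the 2-fold size. Of all measured genes, 11.2% were at least 2-fold higher and 10.3% lower with MC903, and 9.8% higher and 14.4% lower at oxazolone day 16. The ratio was -1.23 (-1.33 to -1.13) at oxazolone day 10, or 2.34-fold lower, where 8.68% of measured genes were at least 2-fold higher and 8.04% lower. Between the oxazolone times, Ccl11 was 1.69 (1.59 to 1.80) on the log2 scale above day 10 at day 16, where 5.09% of genes were at least 2-fold higher and 8.04% lower. Within the pairs of libraries that share a software version, MC903 was at -0.23 (-0.29 to -0.17) relative to oxazolone day 16, and oxazolone day 10 at -1.23 relative to untreated skin.

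**Figure D2:**
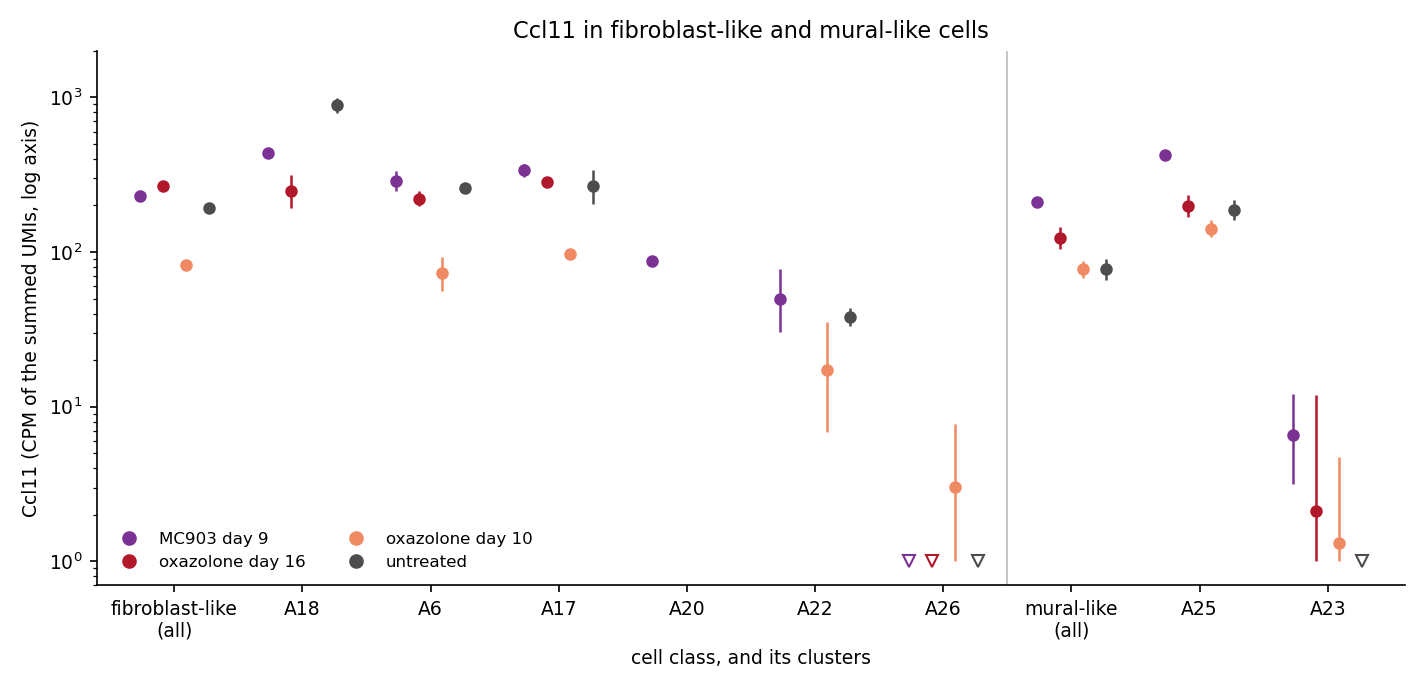
Ccl11 level (CPM of summed UMIs, log axis) in the cell classes and in the fibroblast-like (A6, A17, A18, A20, A22, A26) and mural-like (A25, A23) clusters of each library, with bars for the exact Poisson 95% interval, open triangles for levels below 1 CPM and no point for fewer than 10 cells. Oxazolone day 10 lies lowest of the 4 libraries in fibroblast-like cells at 82.8 CPM, and cluster A23 stays at or below 6.57 CPM beside cluster A25 at 141 to 424 CPM.

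The fibroblast-like class was made of different clusters in different libraries, so a class value sets unlike mixtures side by side. A cluster mostly of 1 library may reflect that library rather than a type of cell. Cluster A18, led within the class by Plcxd3, C7, Fmo2, Cxcl13 and Gdf10, and cluster A20, led by Cyp24a1, Acod1, F13a1, Nebl and Scd1, held 514 and 458 of the 1079 MC903 cells. Cyp24a1, the enzyme that breaks down vitamin D, leads A20, and 458 of the 468 cells of A20 came from MC903 skin. Cluster A17, led by Cxcl5, Il1rl1, Reg3g, Saa3 and Reg1, held 276 of 352 cells at oxazolone day 16 and 259 of 396 at oxazolone day 10. Cluster A6, led by Cdh4, Smpd3, Pik3r6, Ppp1r14a and Zfp536, held 1060 of the 1731 untreated cells.

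These clusters differed in Ccl11 within a library. With MC903, Ccl11 was at 436 CPM in A18 and 86.9 CPM (82.3 to 91.6) in A20, so A18 held 69.9% and A20 20.3% of the UMIs of the class. In untreated skin it was at 887 CPM (795 to 988) in the 56 cells of A18, at 259 CPM in A6 and at 38.2 CPM in the 396 cells of A22, led by Enho, Trhde, Rxfp1, Ndufa4l2 and Ramp1. A18 thus had the highest level of the fibroblast-like clusters in both of these libraries, and Ccl11 was itself among its 10 leading genes over all cells. Cluster A26, led by Chrm2, Hapln1, Col11a1, Acan and Acta2, was all but empty of Ccl11, with 0 UMIs in 30 MC903 cells, 0 in 10 at oxazolone day 16, 4 in 79 at oxazolone day 10 and 1 in 200 untreated cells.

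The ratios within clusters differed from those of the class. In A18 the MC903 level was below the untreated one, at -1.02 (-1.18 to -0.86) on the log2 scale, although the class as a whole was at 0.24. In A6 the oxazolone day 16 level was 221 CPM in 51 cells, against 259 CPM in 1060 untreated cells, a log2 ratio of -0.23 (-0.40 to -0.06). The 27 MC903 cells of A6 were at 287 CPM with 37.8% of their UMIs in 1 cell, and the 37 cells at oxazolone day 10 were at 72.8 CPM. In A17 the oxazolone day 16 level was 282 CPM, against 97.0 CPM at oxazolone day 10, a log2 ratio of 1.54 (1.43 to 1.65). Oxazolone day 10 was thus below oxazolone day 16 in both A6 and A17. Untreated A17 had 17 cells, and 79.1% of its Ccl11 UMIs lay in 1 of them.

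Single cells bore unequally on the class values. The cell with the most Ccl11 held 1.37% of the class UMIs with MC903, 9.68% at oxazolone day 16, 15.5% at oxazolone day 10 and 1.27% in untreated skin. Without the 5 richest cells of each library the levels were 217 CPM with MC903, 221 CPM at oxazolone day 16, 58.8 CPM at oxazolone day 10 and 186 CPM in untreated skin. Without cluster A20, left out after its make-up had been seen, the MC903 ratio to untreated skin was 1.01 instead of 0.24, just past 2-fold.

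RNA of other cells and signs of cell handling also moved between the libraries. As a share of what neutrophil-like cells had, the 6 neutrophil markers summed in fibroblast-like cells to 1.82% with MC903, 1.30% at oxazolone day 16, 0.109% at oxazolone day 10 and 0.0217% in untreated skin, and none was at 0. Of 8 genes that respond to tissue dissociation, such as Fos, Egr1 and Junb, 6 were at least 2-fold lower in fibroblast-like cells at oxazolone day 10 than in untreated skin (median log2 ratio -1.42, against -0.053 over all measured genes). Relative to untreated skin 0 of 8 were so with MC903 (median 0.38) or at oxazolone day 16 (median -0.29), and 6 of 8 were higher at oxazolone day 16 than at day 10. Among all measured genes 10.3% (MC903), 14.4% (oxazolone day 16) and 8.04% (oxazolone day 10) were at least 2-fold below untreated skin. Between the oxazolone times 5.09% were higher at day 16. The part of RNA of other cells and of cell handling in the Ccl11 levels was not tested.

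Mural-like cells carried Ccl11 at a level that came close to that of fibroblast-like cells in some libraries, with only 51 to 260 cells per library. It was 210.3 CPM (194 to 227) in 218 MC903 cells, 123 CPM (104 to 144) in 51 cells at oxazolone day 16, 77.2 CPM (68.1 to 87.3) in 217 cells at oxazolone day 10 and 77.4 CPM (66.0 to 90.1) in 260 untreated cells. Set against fibroblast-like cells of the same library, these were 92.1% with MC903, 45.96% at oxazolone day 16, 93.3% at oxazolone day 10 and 39.95% in untreated skin. The intervals of the classes overlapped with MC903 and at oxazolone day 10, and did not at oxazolone day 16 or in untreated skin.

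Within the mural-like class, Ccl11 lay in 1 of its 2 clusters. Cluster A25, whose leading genes over all cells included the pericyte genes Rgs5, Abcc9 and Higd1b, was at 424 CPM in 115 MC903 cells, 199.6 CPM in 25 cells at oxazolone day 16, 141 CPM in 106 cells at oxazolone day 10 and 187 CPM in 108 untreated cells. Cluster A23, led by the smooth muscle genes Myh11, Rergl and Lmod1, had 10 Ccl11 UMIs in 103 MC903 cells, 1 in 26 cells at oxazolone day 16, 2 in 111 cells at oxazolone day 10 and 0 in 152 untreated cells. A25 thus held at least 98.4% of the mural-like Ccl11 UMIs in each library. The share of A25 cells with a Ccl11 UMI was 48.7% with MC903, 68.0% at oxazolone day 16, 40.6% at oxazolone day 10 and 47.2% in untreated skin.

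MC903 skin had the highest mural-like level. The log2 ratio to untreated skin was 1.44 (1.19 to 1.70) with MC903, past 2-fold, where 3.62% of measured genes were at least 2-fold higher and 6.77% lower. It was 0.67 (0.34 to 0.997) at oxazolone day 16, where 5.28% of genes were higher and 13.9% lower. It was -0.0024 (-0.29 to 0.29) at oxazolone day 10, where 3.57% of genes were higher and 4.3% lower. MC903 was thus the only library past 2-fold in these cells. Oxazolone day 16 was 0.67 (0.37 to 0.97) above day 10, short of 2-fold, where 3.73% of genes were higher and 9.74% lower. Within cluster A25 the MC903 ratio was 1.18 (0.93 to 1.43) and the oxazolone day 10 ratio -0.41 (-0.69 to -0.12), and MC903 was 1.58 above oxazolone day 10. The oxazolone day 16 value rested on few cells, since without the 5 richest cells its ratio to untreated skin was -0.048. Within the shared software versions, MC903 was 0.77 (0.51 to 1.04) above oxazolone day 16 in mural-like cells.

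Fibroblast RNA was present among the mural-like cells. The 6 fibroblast markers summed to 9.36% (MC903), 16.01% (oxazolone day 16), 8.39% (oxazolone day 10) and 6.59% (untreated) of their fibroblast level. Relative to the fibroblast level these markers stood in A25 at 15.9% with MC903, 23.3% at oxazolone day 16, 14.0% at oxazolone day 10 and 13.6% in untreated skin. Ccl11 in A25 stood at 186% with MC903, 74.6% at oxazolone day 16, 171% at oxazolone day 10 and 96.8% in untreated skin on the same footing, above the markers in every library. All 7 mural markers were seen in over 20% of the class in 3 libraries, and 6 of 7 at oxazolone day 16.

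Outside these sources Ccl11 was low. Among the other classes with at least 50 cells, the median was 1.32 CPM over 10 classes with MC903, 0.530 CPM over 10 at oxazolone day 16, 0 over 14 at oxazolone day 10 and 1.68 CPM over 11 in untreated skin. The highest of them rested on single cells. It was 3.97 CPM in neutrophil-like cells with MC903 (70% of the UMIs in 1 cell), 9.77 CPM in chondrocyte-like cells at oxazolone day 16 (84.6% in 1 cell) and 31.7 CPM in Schwann-like cells of untreated skin (93.3% in 1 cell). At oxazolone day 10 it was 0.836 CPM, in keratinocyte-like cells.

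Ccl24 behaved unlike Ccl11, with differences between groups that were far larger. Over all kept cells it was at 150.4 CPM (10372 UMIs) with MC903, 1944 CPM (190758 UMIs) at oxazolone day 16, 40.1 CPM (4264 UMIs) at oxazolone day 10 and 3.08 CPM (254 UMIs) in untreated skin. Within macrophage-like or monocyte-like cells it was at 2529.9 CPM (2481 to 2579) in 175 MC903 cells, 5995 CPM (5968 to 6022) in 1487 cells at oxazolone day 16, 168 CPM (163 to 173) in 1910 cells at oxazolone day 10 and 198 CPM (172 to 227) in 120 untreated cells. MC903 and oxazolone day 16 stood more than 10-fold above both other libraries. The 8 macrophage markers, among them C1qa, Mrc1 and Csf1r, were each found in at least 49.1% of the cells of the class in every library.

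The share of these cells with a Ccl24 UMI was also highest in those libraries, at 46.9% with MC903, 84.4% at oxazolone day 16, 19.5% at oxazolone day 10 and 18.3% in untreated skin. Thinned to 1000 UMIs per cell the shares were 31.0% with MC903, 61.5% at oxazolone day 16, 5.65% at oxazolone day 10 and 5.93% in untreated skin. MC903 and oxazolone day 16 thus stayed highest after thinning, and the untreated cells were the shallowest at a median of 8168.5 UMIs, against 21978 with MC903, 21026 at oxazolone day 16 and 12964 at oxazolone day 10.

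Relative to untreated skin, Ccl24 was 12.8-fold higher with MC903, a log2 ratio of 3.68 (3.48 to 3.88), and 30.3-fold higher at oxazolone day 16, a log2 ratio of 4.92 (4.73 to 5.12). Of measured genes in these cells, 8.79% were at least 2-fold higher and 8.98% lower with MC903, and 7.88% higher and 23.9% lower at oxazolone day 16. The ratio was -0.23 (-0.44 to -0.028) at oxazolone day 10, short of 2-fold, where 7.53% of genes were higher and 8.82% lower. Oxazolone day 16 was 35.7-fold above oxazolone day 10, a log2 ratio of 5.16 (5.11 to 5.20), where 6.26% of genes were at least 2-fold higher and 22.8% lower. Within the shared software versions, MC903 was at -1.24 (-1.27 to -1.22) relative to oxazolone day 16.

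The untreated level hung on 1 cell. That cell held 138 of the 210 untreated UMIs, or 65.7%, and was the only 1 of the 28 untreated cells of cluster B5 with any. Without the 5 richest cells of each library the level was 1638 CPM with MC903, 5787 CPM at oxazolone day 16, 116 CPM at oxazolone day 10 and 27.6 CPM in untreated skin. The log2 ratios to untreated skin were then 5.89 with MC903, 7.71 at oxazolone day 16 and 2.07 at oxazolone day 10, so that oxazolone day 10 turned from below untreated skin to above it. When cells were gated one by one on markers instead of by cluster, the oxazolone day 10 ratio was likewise positive, at 1.10.

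The dissociation genes also differed between libraries in the other source classes. In mural-like cells 0 of 8 passed 2-fold with MC903 (median 0.022), 1 was lower at oxazolone day 16 (median -0.55) and 8 of 8 were lower at oxazolone day 10 (median -2.41) than in untreated skin. Among all genes measured in mural-like cells 6.77%, 13.9% and 4.3% were lower in these libraries. The macrophage-like or monocyte-like class had 4 of 8 lower with MC903, 6 of 8 at oxazolone day 16 and 8 of 8 at oxazolone day 10 (medians -0.67, -1.26 and -1.33). Among all genes measured in this class 8.98%, 23.9% and 8.82% were lower. As a share of their own class, neutrophil markers there summed to 0.774% with MC903, 1.35% at oxazolone day 16, 0.355% at oxazolone day 10 and 0.374% in untreated skin, and fibroblast markers to 0.197% to 0.556%. The part of these in the levels of Ccl24 and of mural-like Ccl11 was not tested.

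**Figure D3:**
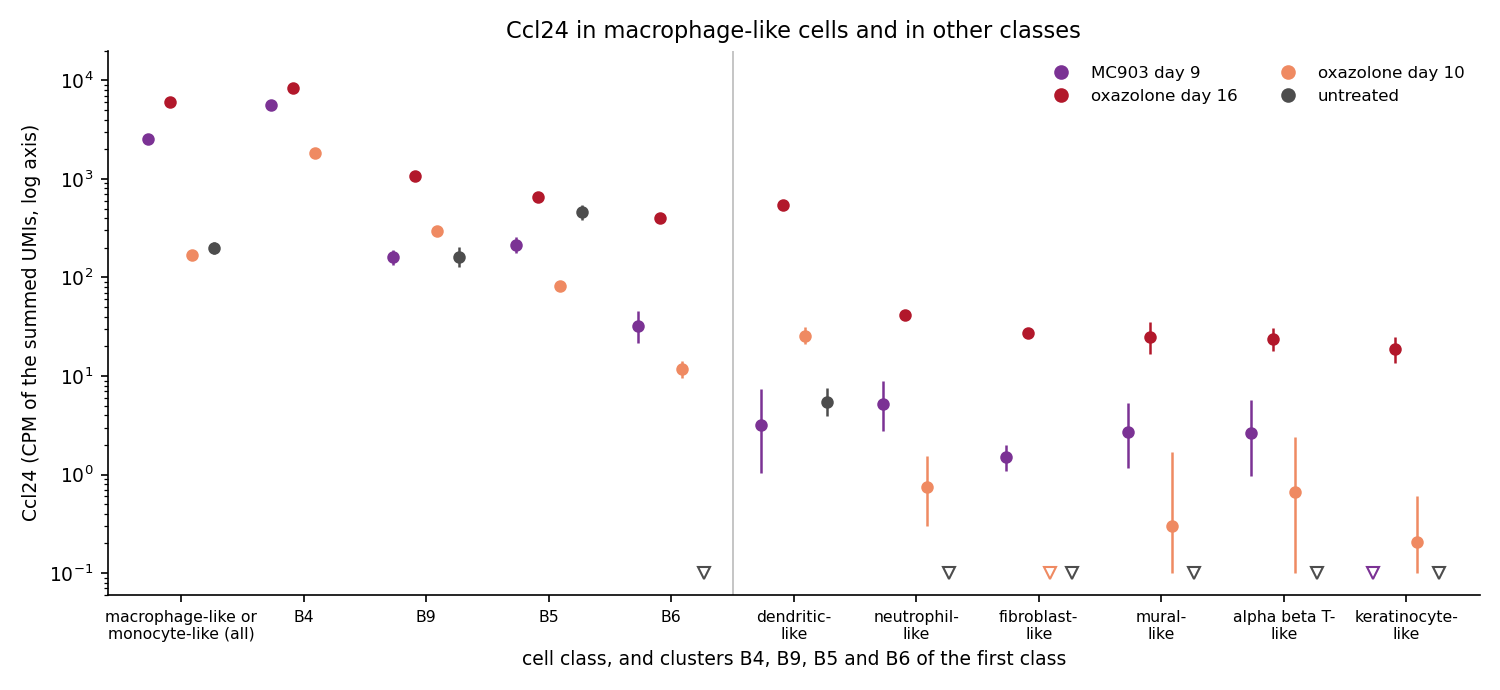
Ccl24 level (CPM of summed UMIs, log axis) in the cell classes and in the macrophage-like or monocyte-like clusters B4, B9, B5 and B6 of each library, with bars for the exact Poisson 95% interval, open triangles for levels below 0.1 CPM and no point for fewer than 10 cells. Cluster B4 is highest at 5662 CPM with MC903, 8370.2 CPM at oxazolone day 16 and 1814 CPM at oxazolone day 10, and has no untreated cell.

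Most Ccl24 came from cluster B4. It was led within the class by Inhba, Mmp13, Arg1, Slc7a2 and Ccl24 itself, although the 3 member genes were kept out of the clustering, and Arg1, arginase, is a mark of macrophages exposed to IL-4. B4 held 79 of 175 MC903 cells, 1055 of 1487 cells at oxazolone day 16, 108 of 1910 at oxazolone day 10 and 0 of 120 untreated cells. Its cells held 97.3% of the class UMIs of Ccl24 with MC903, 96.2% at oxazolone day 16 and 55.6% at oxazolone day 10. Since 1055 of its 1242 cells came from the oxazolone day 16 library, its make-up may reflect that library.

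Oxazolone day 16 was above oxazolone day 10 inside clusters too. The other clusters, described below, did not agree on MC903 against untreated skin, and each had too few cells for a ratio. The levels were close in B9, whereas B6 had Ccl24 with MC903 and none in untreated skin. B5 cannot show whether MC903 differed, since its untreated level came from a single cell. In B4 Ccl24 was at 5662 CPM with MC903, 8370.2 CPM at oxazolone day 16 and 1814 CPM at oxazolone day 10, and the share of cells with a UMI was 75.9% with MC903, 92.5% at oxazolone day 16 and 52.8% at oxazolone day 10. Oxazolone day 16 was thus 2.21 (2.15 to 2.27) above oxazolone day 10 on the log2 scale in B4, and MC903 was 1.64 (1.58 to 1.71) above it. The ratio within B4 was smaller than the 5.16 of the class, in which the share of B4 cells differed too.

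Cluster B9, led by Lyve1, Enpp2, Cd209d, Cd55 and Gas6, of which Lyve1 marks some resident tissue macrophages, was the only cluster of the class with at least 50 cells in untreated skin. There Ccl24 was at 161 CPM in 31 MC903 cells, 1075 CPM in 160 cells at oxazolone day 16, 294 CPM in 146 cells at oxazolone day 10 and 163 CPM in 51 untreated cells. The log2 ratio to untreated skin was 2.73 (2.39 to 3.08) at oxazolone day 16 and 0.86 (0.51 to 1.23) at oxazolone day 10. In this cluster, then, oxazolone day 10 was above untreated skin and not below it as in the whole class. MC903 was level with untreated skin by CPM, but its 31 cells were under the 50 needed for a ratio. The higher MC903 level of the class thus lay mostly in B4, which had no untreated cell.

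The other clusters had less. Cluster B5, led by Cadm1, Arhgap22, Cd72, Slamf9 and H2-Eb1, was at 213 CPM in 21 MC903 cells, 655 CPM in 83 cells at oxazolone day 16, 82.2 CPM in 916 cells at oxazolone day 10 and 458 CPM in 28 untreated cells, the last from the single cell named above. Cluster B6, whose leading genes included Ifitm6, Hp, Prtn3 and Vcan, was at 32.0 CPM in 44 MC903 cells, 399 CPM in 189 cells at oxazolone day 16, 11.7 CPM in 740 cells at oxazolone day 10 and 0 in 41 untreated cells. Oxazolone day 16 was above oxazolone day 10 in both, by 2.99 (2.87 to 3.12) in B5 and 5.09 (4.80 to 5.41) in B6 on the log2 scale. All 4 clusters thus had more Ccl24 at oxazolone day 16 than at day 10.

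At oxazolone day 16 some Ccl24 was found in every other class with at least 50 cells. Among the classes with at least 50 cells other than dendritic-like cells, it ran from 18.6 CPM in keratinocyte-like to 47.9 CPM in chondrocyte-like cells, with a UMI in 22.01% to 45.5% of the cells. Fibroblast-like cells were at 27.1 CPM (24.3 to 30.1) and neutrophil-like cells at 41.7 CPM (39.5 to 44.0) in that library. Ccl24 was thus at like levels in unlike classes there. The median over such classes was 1.82 CPM with MC903, 25.04 CPM at oxazolone day 16, 0.286 CPM at oxazolone day 10 and 0 in untreated skin. As a share of the macrophage level of the same library these medians were 0.0720% with MC903, 0.418% at oxazolone day 16, 0.170% at oxazolone day 10 and 0% in untreated skin. The highest of these classes with MC903 were Schwann-like cells at 32.6 CPM, with 80.4% of their Ccl24 UMIs in 1 cell. Whether free RNA or the cells themselves gave these UMIs was not tested.

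Dendritic-like cells stood above those levels at both oxazolone times. Their Ccl24 was at 3.19 CPM in 47 MC903 cells, 546 CPM in 75 cells at oxazolone day 16, 25.7 CPM in 254 cells at oxazolone day 10 and 5.49 CPM in 630 untreated cells. At oxazolone day 16, 5 cells held 89.9% of the UMIs and the level without them was 60.2 CPM. At oxazolone day 10, 5 cells held 65.3% and the level without them was 9.11 CPM, and in untreated skin 36 of the 40 UMIs lay in 1 cell. In melanocyte-like cells at oxazolone day 16 all 264 UMIs lay in 1 of 13 cells.

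Ccr3 was sparse. It had 43 UMIs in 26 cells with MC903, 176 UMIs in 123 cells at oxazolone day 16, 69 UMIs in 50 cells at oxazolone day 10 and 22 UMIs in 13 cells of untreated skin. Over all kept cells this was 0.623 CPM with MC903, 1.79 CPM at oxazolone day 16, 0.649 CPM at oxazolone day 10 and 0.267 CPM in untreated skin. Neutrophil-like cells led among its holders with MC903 and at oxazolone day 16, and alpha beta T-like cells at oxazolone day 10 and in untreated skin. Neutrophil-like cells held 46.5% of these UMIs with MC903, 60.2% at oxazolone day 16, 10.1% at oxazolone day 10 and 0% in untreated skin. The share of alpha beta T-like cells was 9.30% with MC903, 4.55% at oxazolone day 16, 71.0% at oxazolone day 10 and 59.1% in untreated skin. That of macrophage-like or monocyte-like cells was 6.98% with MC903, 31.2% at oxazolone day 16, 14.5% at oxazolone day 10 and 0% in untreated skin. In this last class the level was 1.76 CPM (55 UMIs) at oxazolone day 16 and 0.406 CPM (10 UMIs) at oxazolone day 10. The log2 ratio was 2.12 (1.13 to 3.25), past 2-fold, where 6.26% of measured genes were at least 2-fold higher. The mixture of clusters differed, since B4 was 70.9% of the class at day 16 and 5.65% at day 10. Within B4 Ccr3 was at 1.67 CPM (36 UMIs) at day 16 and 3.15 CPM (4 UMIs) at day 10. In B9 it was at 4.26 CPM (18 UMIs) and 2.11 CPM (5 UMIs), and both pairs of intervals overlapped. B5 and B6 had at most 1 UMI each at either time. At day 16, 5 cells held 52.8% of the UMIs in B4 and 5 cells 66.7% in B9.

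Eosinophils, the main bearers of CCR3, formed no cluster. Not 1 cell of any library held UMIs of 3 or more of the 6 eosinophil markers, and 1 cell, at oxazolone day 10, held 2. The 6 markers together had 41 UMIs with MC903, 99 at oxazolone day 16, 86 at oxazolone day 10 and 14 in untreated skin. Among them Epx, eosinophil peroxidase, had 2 UMIs with MC903, 2 at oxazolone day 16, 1 at oxazolone day 10 and 0 in untreated skin. These counts cover captured cells only and do not show whether the skin held eosinophils. Of the cells with Ccr3, 0 of 26 with MC903, 0 of 123 at oxazolone day 16, 1 of 50 at oxazolone day 10 and 1 of 13 in untreated skin had a UMI of any of these markers.

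Of the alpha beta T-like Ccr3 UMIs, 81.6% to 100% lay in cluster B13, led by Frmd5, Itgb8, Cep112, Foxp3 and Ankrd55, of which Foxp3 encodes the transcription factor of regulatory T cells. B13 was picked after its Ccr3 values were seen, so its contrast with other cells is a description. A Ccr3 UMI was found in 3 of 16 B13 cells with MC903, 4 of 30 at oxazolone day 16, 25 of 149 at oxazolone day 10 and 5 of 32 in untreated skin. These shares were 18.8% (4.05% to 45.6%) with MC903, 13.3% (3.76% to 30.7%) at oxazolone day 16, 16.8% (11.2% to 23.8%) at oxazolone day 10 and 15.6% (5.28% to 32.8%) in untreated skin, and their intervals overlapped widely. Among the other alpha beta T-like cells it was 0 of 146 with MC903, 0 of 179 at oxazolone day 16, 6 of 255 at oxazolone day 10 and 0 of 56 in untreated skin. The counts of 0 allow shares of up to 2.05% (MC903), 1.68% (oxazolone day 16) and 5.36% (untreated).

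The level of Ccr3 in B13 was 22.1 CPM (6.02 to 56.6) with MC903, 25.2 CPM (10.9 to 49.6) at oxazolone day 16, 52.2 CPM (37.3 to 71.1) at oxazolone day 10 and 87.7 CPM (46.7 to 149.9) in untreated skin. Thinned to 1000 UMIs the shares of B13 cells were 6.25% with MC903, 6.67% at oxazolone day 16, 7.43% at oxazolone day 10 and 9.68% in untreated skin, close to each other and with intervals wider than their differences. The share with Ccr3 among cells of the class with a Foxp3 UMI, an overlapping set, was 9.09% with MC903, 14.3% at oxazolone day 16, 14.7% at oxazolone day 10 and 17.4% in untreated skin. B13 was a larger part of the alpha beta T-like class at oxazolone day 10 (36.9%) and in untreated skin (36.4%) than with MC903 (9.88%) or at oxazolone day 16 (14.4%), and the share of cells with Ccr3 in the whole class was 1.85% with MC903, 1.91% at oxazolone day 16, 7.67% at oxazolone day 10 and 5.68% in untreated skin.

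Neutrophil-like cells had Ccr3 in few cells each. The count was 13 of 312 (4.17%) with MC903, 81 of 4237 (1.91%) at oxazolone day 16, 7 of 1796 (0.390%) at oxazolone day 10 and 0 of 26 in untreated skin. For macrophage-like or monocyte-like cells it was 2 of 175 with MC903, 32 of 1487 (2.15%) at oxazolone day 16, 9 of 1910 at oxazolone day 10 and 0 of 120 in untreated skin. Thinned to 1000 UMIs, no neutrophil-like or macrophage-like share was above 0.692%. Basophil-like cells, which are known bearers of CCR3, had a UMI in 1 of 63 cells with MC903, 3 of 57 at oxazolone day 16, 1 of 79 at oxazolone day 10 and 3 of 11 in untreated skin.

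Cells that should lack the receptor set the background. Keratinocyte-like cells had Ccr3 in 0 of 12 cells with MC903, 1 of 77 at oxazolone day 16, 1 of 606 at oxazolone day 10 and 2 of 1176 in untreated skin, and their median depths were 33706 UMIs with MC903, 25402 at oxazolone day 16, 21372.5 at oxazolone day 10 and 11861.5 in untreated skin. Melanocyte-like and mural-like cells had none in any library. Fibroblast-like cells had none in 352 cells at oxazolone day 16, 396 at oxazolone day 10 and 1731 in untreated skin, which allows at most 0.852%, 0.758% and 0.173%. With MC903 they had 10 UMIs in 3 of 1079 cells, all in cluster A20. The neutrophil-like share at oxazolone day 16, 1.91% in cells of a median of 7088 UMIs, lay above the limit for fibroblast-like cells of that library, but within the interval of its keratinocyte-like share of 1.30% (0.0329% to 7.02%). At oxazolone day 10 the interval of the neutrophil-like share, 0.157% to 0.801%, includes the keratinocyte-like 0.165%. By share of cells, the keratinocyte-like comparison cannot settle whether neutrophil-like Ccr3 was above background, since it rests on 1 cell with a UMI at each oxazolone time. At oxazolone day 16 the keratinocyte-like cells were also deeper (25402 against 7088 UMIs), so like shares are not like levels. By level there, neutrophil-like clusters B0, B2 and B3 were at 3.22, 3.82 and 3.08 CPM. Their lower limits were 2.29, 2.71 and 2.05 CPM, and the other neutrophil-like clusters had no UMI. Keratinocyte-like cluster A12 had none in 61 cells (upper limit 2.10 CPM), and A11 had 1 UMI in 13 cells (2.46 CPM). Fibroblast-like cluster A17 had none in 276 cells (upper limit 0.347 CPM). At oxazolone day 10 the neutrophil-like interval also included the fibroblast-like limit of 0.758%.

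Across cell types the levels of the members were weakly related. Over 53 sums of a class and a library with at least 50 cells, Pearson's r of log2(CPM + 1) was -0.12 between Ccl11 and Ccl24, -0.27 between Ccl11 and Ccr3, and 0.11 between Ccl24 and Ccr3. The genes most like Ccl11 among 12913 were Ebf2 (r = 0.90), Rarres2 (0.90), Adgrd1 (0.89), Abcc9 (0.87) and Col6a6 (0.86). Most like Ccl24 were Ccl12 (0.92), Mmp13 (0.92), Arg1 (0.90), Mmp12 (0.85) and Pf4 (0.84). Most like Ccr3 were Gm5149 (0.73), Il10 (0.71), Fam169b (0.67), Gpr174 (0.67) and Foxp3 (0.66). The sums share libraries and cell classes, so these values describe the pattern across cell types and are no test.

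The cytokines known to induce eotaxins were measured over all kept cells. Il4 was at 52.6 CPM with MC903, 40.3 CPM at oxazolone day 16, 2.70 CPM at oxazolone day 10 and 0.873 CPM in untreated skin, and basophil-like cells held most of it in the 3 treated libraries. Il13 had 591 UMIs with MC903, 258 at oxazolone day 16, 34 at oxazolone day 10 and 99 in untreated skin. Il4 was thus high in both libraries with high macrophage Ccl24 and low in the others.

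Il4 was not alone in this. Il13, Tnf, Osm, Il1b and Ifng were also higher with MC903 and at oxazolone day 16 than in the other libraries. Il33 was too, but its MC903 level was close to that of oxazolone day 10. Il5 and Tslp had other patterns. Il5, the eosinophil growth factor, had 10 UMIs with MC903, 1 at oxazolone day 16, 7 at oxazolone day 10 and 161 in untreated skin, 152 of these in ILC2-like cells. Il33 was at 21.8 CPM with MC903, 43.8 CPM at oxazolone day 16, 21.1 CPM at oxazolone day 10 and 11.1 CPM in untreated skin. Tslp was at 3.54 CPM with MC903, 0.836 CPM at oxazolone day 16, 0.668 CPM at oxazolone day 10 and 1.16 CPM in untreated skin. Both are cytokines of barrier tissue, and Il33 was highest at oxazolone day 16 while Tslp was highest with MC903. Tnf was at 70.5 CPM with MC903, 262 CPM at oxazolone day 16, 25.96 CPM at oxazolone day 10 and 20.9 CPM in untreated skin. Osm, oncostatin M, was at 69.0 CPM with MC903, 291 CPM at oxazolone day 16, 44.9 CPM at oxazolone day 10 and 2.45 CPM in untreated skin. Il1b was at 515 CPM with MC903, 2354 CPM at oxazolone day 16, 254 CPM at oxazolone day 10 and 32.4 CPM in untreated skin. Over all kept cells Tnf, Osm and Il1b were highest at oxazolone day 16, and so was Ifng. Ifng was at 2.44 CPM with MC903, 3.76 CPM at oxazolone day 16, 1.47 CPM at oxazolone day 10 and 0.521 CPM in untreated skin. Such levels depend on the cells captured. At oxazolone day 16 neutrophil-like cells held 84.2% of the Il1b, 80.2% of the Tnf and 64.4% of the Osm UMIs. Within macrophage-like or monocyte-like cells MC903 was instead above oxazolone day 16. Il1b was at 1467 against 961 CPM, Tnf at 386 against 138 CPM and Osm at 506 against 280 CPM.

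Among the receptors and signalling genes for these cytokines, 11 were measured in fibroblast-like cells. With MC903, 2 were at least 2-fold above untreated skin, Osmr at 1.04 and Il6st at 1.01 on the log2 scale, and none was below (median 0.25, against 0.048 over all genes). At oxazolone day 16, 6 were higher (median 1.04, against -0.18), among them Il13ra2 at 3.36, Il1r1 at 1.86 and Il4ra at 1.52. Oxazolone day 10 had 4 higher (median 0.58, against -0.053), among them Il13ra2 at 3.30 and Il4ra at 1.42. Among all measured genes 11.2% were at least 2-fold higher with MC903, 9.8% at oxazolone day 16 and 8.68% at oxazolone day 10. Il4ra encodes a chain of the receptors for both IL-4 and IL-13, and it was past 2-fold above untreated skin at both oxazolone times, where Ccl11 was at 0.47 (day 16) and -1.23 (day 10).

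In mural-like cells 0 of 10 measured receptor genes passed 2-fold with MC903 (median 0.37), 4 of 10 were higher at oxazolone day 16 (median 0.64) and, of 11 at oxazolone day 10, 1 was higher and 1 lower (median 0.43). Among all measured genes 3.62%, 5.28% and 3.57% were higher in these libraries and 6.77%, 13.9% and 4.3% lower. The macrophage-like or monocyte-like class had 2 of 9 higher with MC903 (median 0.63), 4 of 9 at oxazolone day 16 (median 0.15) and 3 of 9 at oxazolone day 10 (median 0.34), and none was lower. Among all genes measured in this class 8.79%, 7.88% and 7.53% were higher. Il4ra of this class was at 251 CPM with MC903, 349 CPM at oxazolone day 16, 179 CPM at oxazolone day 10 and 64.1 CPM in untreated skin. It was above untreated skin on the log2 scale by 1.97 with MC903, 2.44 at oxazolone day 16 and 1.48 at oxazolone day 10.

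Of the genes listed for this report as a fibroblast response to IL-4 and IL-13, 10 were measured in fibroblast-like cells. Whether IL-4 or IL-13 moved them here was not tested. With MC903, 0 were higher and 2 lower than untreated skin (median -0.30), beside 11.2% and 10.3% of all measured genes, Ccl8 at -1.37 and Postn, periostin, at -1.13. At oxazolone day 16, 8 of 10 were higher (median 1.502), beside 9.8% of all measured genes, with Ptx3 at 4.22, Il13ra2 at 3.36 and the matrix gene Tnc at 3.16. Oxazolone day 10 had 5 of 10 higher (median 1.21), beside 8.68% of all measured genes, with Tnc at 3.64, Il13ra2 at 3.30 and Ptx3 at 2.30. At oxazolone day 10, then, 5 of these genes were at least 2-fold above untreated skin and Ccl11 was more than 2-fold below it.

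Genes that IL-4 induces in macrophages included some at least 2-fold higher and some lower than untreated skin in each treated library. Of 12 measured with MC903, 7 were higher and 2 lower (median 1.95, against -0.027 over all genes), beside 8.79% and 8.98% of all measured genes. Of 13 at oxazolone day 16, 9 were higher and 4 lower (median 2.44, against -0.35), beside 7.88% and 23.9%. Of 12 at oxazolone day 10, 5 were higher and 4 lower (median 0.38, against 0.0090), beside 7.53% and 8.82%. Arg1, Pdcd1lg2 and Retnla were among the larger differences. Arg1 was at 3143 CPM with MC903, 7089 CPM at oxazolone day 16, 353 CPM at oxazolone day 10 and 4.71 CPM in untreated skin. Pdcd1lg2 was at 61.7 CPM with MC903, 153 CPM at oxazolone day 16, 26.6 CPM at oxazolone day 10 and 2.83 CPM (3 UMIs) in untreated skin, and Retnla was 4.52 on the log2 scale higher at oxazolone day 16 than at day 10. At oxazolone day 10 Arg1 was above untreated skin by 6.23 on the log2 scale, from 5 untreated UMIs, while Fcrls at -2.66 and Mgl2 at -2.61 were below it.

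The chemokine genes beside Ccl11 on chromosome 11 differed from it in fibroblast-like cells. With MC903, 0 of 3 measured neighbours were higher and 1, Ccl8, was lower than untreated skin (median -0.22). At oxazolone day 16, 4 of 4 were higher (median 2.88), with Ccl2 at 462 CPM, against 53.9 CPM in untreated skin, and Ccl7 at 489.5 CPM, against 78.0 CPM. Oxazolone day 10 had 2 of 3 higher (median 1.03), Ccl8 at 1.74 and Ccl2 at 1.03 on the log2 scale. Among all measured genes 11.2% (MC903), 9.8% (oxazolone day 16) and 8.68% (oxazolone day 10) were at least 2-fold higher, and 10.3%, 14.4% and 8.04% lower. The neighbours Ccl2 and Ccl7 were thus well above 2-fold at oxazolone day 16, where Ccl11 was at 0.47 on the log2 scale.

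In mural-like cells Ccl7 was at 119 CPM and Ccl2 at 278 CPM at oxazolone day 16, against 7.46 and 41.9 CPM in untreated skin, so that 2 of 2 measured neighbours were higher. With MC903 the 1 measured, Ccl2, was at -0.031, and at oxazolone day 10 it was at -1.14, lower. Among all genes measured in mural-like cells 5.28% were at least 2-fold higher at oxazolone day 16 and 4.3% lower at oxazolone day 10. The macrophage-like or monocyte-like class had 3 of 4 neighbours higher with MC903 (median 2.00), 4 of 4 at oxazolone day 16 (median 3.58) and 1 of 4 at oxazolone day 10 (median -0.25). Among all genes measured in this class 8.79%, 7.88% and 7.53% were higher. There Ccl7 was at 625 CPM with MC903, 1881 CPM at oxazolone day 16, 66.6 CPM at oxazolone day 10 and 112 CPM in untreated skin. Like Ccl24, Ccl7 was thus highest at oxazolone day 16 and next highest with MC903 in these cells.

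Ccl5, Ccl7 and Ccl28 also bind CCR3. In fibroblast-like cells, of 2 measured, 0 passed 2-fold with MC903, 2 were higher at oxazolone day 16 and 1, Ccl5, was lower at oxazolone day 10 (medians -0.24, 2.15 and -0.72). The macrophage-like or monocyte-like class had 2 of 2 higher with MC903 and at oxazolone day 16, and 1 of 2 at oxazolone day 10 (medians 3.94, 4.45 and 2.40), with a single Ccl5 UMI in untreated skin. In mural-like cells Ccl7 was measured only at oxazolone day 16, where it was higher. Beside these, 9.8% of all genes measured in fibroblast-like cells and 5.28% in mural-like cells were at least 2-fold higher at oxazolone day 16. In fibroblast-like cells 8.04% were lower at oxazolone day 10. The macrophage-like or monocyte-like class had 8.79% (MC903), 7.88% (oxazolone day 16) and 7.53% (oxazolone day 10) of all measured genes higher. Ccl28 had 32 to 48 UMIs in a whole library.

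**Figure D4:**
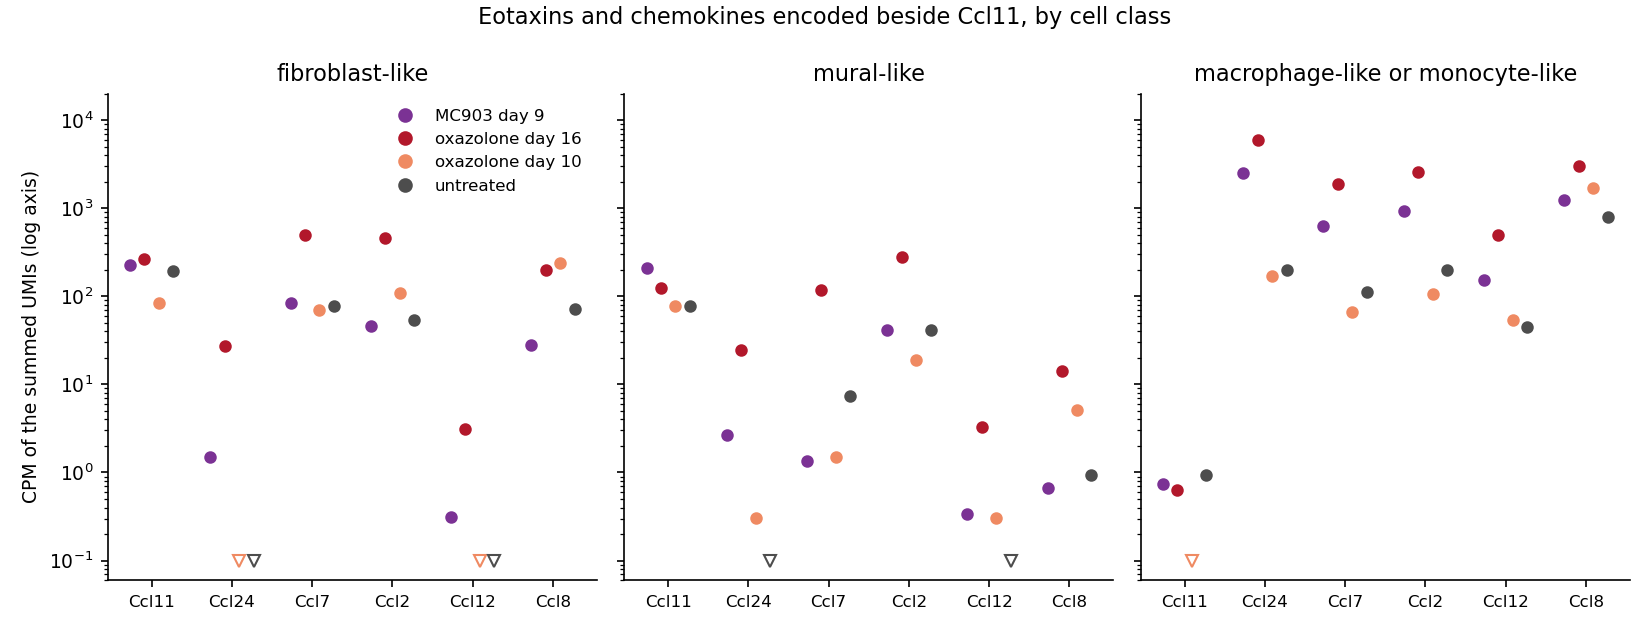
Levels of Ccl11, Ccl24 and neighbouring or related chemokine genes (CPM of summed UMIs, log axis) in fibroblast-like, mural-like and macrophage-like or monocyte-like cells of each library, with open triangles for levels below 0.1 CPM. No intervals are drawn. Ccl2 and Ccl7 are highest at oxazolone day 16 in all 3 classes, whereas fibroblast-like Ccl11 is at 228 CPM with MC903, 268 CPM at oxazolone day 16, 82.8 CPM at oxazolone day 10 and 194 CPM in untreated skin.

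Genes of eosinophil movement and adhesion were few in these classes. In fibroblast-like cells, of 4 measured with MC903, 1 was higher and 1 lower, of 4 at oxazolone day 16 likewise, and of 3 at oxazolone day 10, 0 were higher and 2 lower (medians -0.74, -0.35 and -1.004). Among all measured genes 11.2%, 9.8% and 8.68% were higher in these libraries, and 10.3%, 14.4% and 8.04% lower. Dpp4, a peptidase known to cut CCL11, was at 33.2 CPM with MC903, 78.95 CPM at oxazolone day 16, 20.8 CPM at oxazolone day 10 and 125 CPM in untreated skin. In macrophage-like or monocyte-like cells Ccr1 was above untreated skin on the log2 scale by 2.08 with MC903, 2.17 at oxazolone day 16 and 1.41 at oxazolone day 10. It was the 1 higher gene in each case, of 3 measured with MC903 (1 lower, median 0.79), 4 at oxazolone day 16 (2 lower, median -0.26) and 4 at oxazolone day 10 (0 lower, median 0.64). Among all genes measured in this class 8.79%, 7.88% and 7.53% were higher, and 8.98%, 23.9% and 8.82% lower.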

How the data were processed

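Single-cell RNA was measured with 10x Genomics 3′ chemistry. The deposited matrices hold raw UMI counts, made by the authors with Cell Ranger per the file headers (7.2.0 or 8.0.0), whereas the submitters' processing notes name version 8.0 and mm10. Whether intronic reads were counted is not given in the sources used here. Barcodes under 300 genes or over 15% mitochondrial UMIs were left out, and 1644 top-scoring doublets (Scrublet, 0.8% per 1000 barcodes) were removed. With scanpy 1.11.5, 2000 variable genes without the 3 members, 30 principal components and 15 neighbours gave Leiden clusters at resolution 1, and leukocyte clusters (at least 50% of cells with Ptprc) were clustered again. Clusters were named from 30 marker sets, where at least 3 markers of a set were each in 20% of cells. This left 4 clusters (1212 cells) unnamed.

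UMIs were summed per class and library, and ratios computed with scipy 1.17.1 where both libraries had at least 50 cells. A count of 0 in a ratio was set to 3 UMIs, and limits on shares of 0 use the same 3 counts. UMIs of 1 cell are not independent of its state, so intervals cover counting error only. The ratio step was tested on simulated data. Named list genes are at most the 4 largest ratios among measured members, correlated genes the 5 highest and cluster genes the 5 leading ones, of which 1 is not reported here. Marker genes named for whole clusters were picked after their values were seen. The members and lists were chosen with earlier results of these data known. Gene positions are those of the GRCm38 annotation, matched by gene ID. Alternatives covered doublets, mitochondrial share, resolution, a marker gate per cell, scaling, RNA of other cells, the richest cells and thinning.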

Additional observations from a re-analysis of the deposited data

Results flagged for a closer look

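The ratio of Ccl11 in fibroblast-like cells to untreated skin had opposite signs in the treated libraries. It was 0.24 on the log2 scale with MC903 and 0.47 at oxazolone day 16, but -1.23 at oxazolone day 10. Ccl24 in macrophage-like or monocyte-like cells was likewise at 3.68 with MC903 and 4.92 at oxazolone day 16, but -0.23 at oxazolone day 10. That last sign was not stable, since the ratio was 2.07 without the 5 richest cells of each library, 1.10 with cells gated one by one on markers and 0.86 within cluster B9. With 1 library per group the difference between these effects was not tested, and all share the same untreated library.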

How the results depend on the processing

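Over the alternatives run, 227 values stayed within their interval or size, 66 moved and 2 reversed. No paired analysis was possible because each group has 1 library, and for the same reason there was no replicate to leave out. The cause of a move was not tested unless named.

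Leaving out the 5 cells with the most UMIs of a gene gave Ccl11 log2 ratios in fibroblast-like cells of 0.25 (oxazolone day 16) and -1.66 (oxazolone day 10) over untreated skin and 1.91 for day 16 over day 10, and in mural-like cells -0.048, -0.32 and 0.28. Ccl24 then gave 5.89 (MC903), 7.71 and 2.07 over untreated skin, the last reversed, and 5.64 between oxazolone times. The marker gate gave 0.57, -1.34 and 1.90 for fibroblast-like Ccl11, and 4.74 (MC903), 6.31, 1.10 (reversed) and 5.21 for Ccl24. The MC903 ratio of fibroblast-like Ccl11 was 0.029 with the members kept for clustering, 0.10 without the 50 most abundant genes and, chosen after seeing the data, 1.01 without cluster A20. Minus the median of all measured genes, also chosen after seeing the data, fibroblast-like Ccl11 was at 0.65 (oxazolone day 16) and 1.80 (between times), and Ccl24 at 5.27 and 5.57. At most 5% mitochondrial UMIs gave Ccl24 ratios of 5.15, -0.73 and 5.88.

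The fibroblast-like share of Ccl11 UMIs (MC903, oxazolone day 16, oxazolone day 10, untreated) was 89.3%, 91.8% and, in untreated skin, 86.4% with doublets kept. It was 91.5%, 74.9% and 95.7% in the last 3 libraries with the marker gate. It was 91.1%, 94.96% and, in untreated skin, 96.1% with 5% taken off as RNA of the library. Without the richest cells it was 91.7% at oxazolone day 16 and 70.4% at oxazolone day 10. The macrophage share of Ccl24 UMIs in the 3 treated libraries was 96.2%, 95.9% and 92.95% with doublets kept, and 99.6%, 99.4% and 97.8% with 5% taken off. Without the richest cells it was 97.5%, 98.1%, 95.8% and, untreated, 38.9%. With at most 5% mitochondrial UMIs it was 57.4%, 78.9% and 63.02%, by construction, since 631 of 1208 cells of B4 then fell in a cluster left unnamed. The marker gate gave 93.2% at oxazolone day 16 and 96.9% in untreated skin, resolution 2 gave 97.9% at oxazolone day 16, and resolution 0.5 gave 95.1% at oxazolone day 10.

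The share of alpha beta T-like cells with Ccr3, thinned to 1000 UMIs, was 0.633% with MC903 and 0% at 2000 UMIs. It was 3.05% at oxazolone day 10, against 7.67% not thinned and 0.40% with the gate. In untreated skin it was 3.57%, against 0.435% with doublets kept, 0.432% at resolution 0.5 and 0.442% with the gate. The 3.57% rested on 3 cells, all in B13. These alternatives assign cells to the class anew, so the cells counted in it can differ. The shares therefore do not show a lower Ccr3 level in the same cells. Neutrophil-like shares of 0.692% (MC903), 0.292% (oxazolone day 16) and 0.0577% (oxazolone day 10) were 4.17%, 1.91% and 0.390% not thinned, and 0.970% at 2000 UMIs for oxazolone day 16. Macrophage shares of 0.136% and 0.107% at these oxazolone times were 2.15% and 0.471% not thinned, and 0.575% with MC903 was 0% at 2000 UMIs. Ccr3 had 22 to 176 UMIs per library, which limits all of these shares.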
